A study of Mus musculus with 4 samples.

Results

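The regions described here are the 1081 peaks of chromosome 11 in a list of 37778 MBD1 peaks from the mouse dentate gyrus, all peaks of the list whose chromosome is given as 11. Chromosome 11 was chosen by its number of peaks in this same list, which is low, so that number is a description and no test of it is given. The chromosome is set beside chromosome 3, which holds 3241 peaks, and beside the other 18 autosomes, chromosome 3 included, which hold 36556. Tissue came from C57BL6 mice about 9 weeks old of a line with FLAG-tagged Mbd1. The anti-FLAG ChIP group has 2 libraries and the input group, made without antibody, has 2 libraries from the same line. No ChIP from untagged animals is among the 4 libraries, so reads brought down by tagged MBD1 and by antibody background cannot be told apart. The list is labelled with a false discovery rate of 0.2, so a share of its peaks may be false. It gives 1 value per peak for the libraries together. None of the values below therefore has a replicate error. An interval shows counting error, or the uncertainty of a median over peaks, and not the spread of single peaks. Sequencing depth is unknown, since the total of each library was not given in the sources used here. Peak positions follow the build of the list, mm9.

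MBD1 binds methylated CpG through its methyl-CpG-binding domain and also carries CXXC zinc fingers, some of which bind unmethylated CpG. It is known for recruiting histone methylation and for its part in adult neurogenesis in the hippocampus. The dentate gyrus holds granule neurons and the adult neural stem cells that form new ones. Mouse chromosome 11 is a gene-rich chromosome that carries, among others, the Hoxb cluster and a cluster of type I keratin genes. In the RefSeq gene table of GRCm38.p6 it holds 1609 protein-coding genes, the third highest number of the 19 autosomes, against 983 on the longer chromosome 3. That table is on another build than the peaks, so genes were not placed in the windows and no peak is tied to a gene here.

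Peaks were sparse on chromosome 11, but those with many ChIP reads were not. Its 1081 peaks covered 3.94 Mb, or 3.31% of the 118.8 Mb from the first to the last peak, against 8.09% of 156.6 Mb on chromosome 3. Density was 9.10 peaks per Mb on chromosome 11 and 20.7 per Mb on chromosome 3, a ratio of 0.440 (95% counting interval 0.410 to 0.471). Against the other 18 autosomes, at 16.0 per Mb, the ratio was 0.569 (0.535 to 0.605).

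Sorted by raw ChIP reads, the deficit lay in peaks with few reads. Sorted by enrichment over input, peaks of high ratio were sparse too, as given below. Peaks with under 55 ChIP reads per bin, a bin being a stretch of about 200 bp in which reads were counted, stood at 1.67 per Mb on chromosome 11 and 6.02 per Mb on chromosome 3, a ratio of 0.277 (0.236 to 0.323). From 55 to 65 reads the ratio was 0.396 (0.359 to 0.437), and from 65 to 100 reads it was 0.717 (0.614 to 0.836). At 100 reads or more the order turned round. Chromosome 11 held 88 such peaks, 0.741 per Mb, and chromosome 3 held 40, or 0.255 per Mb, a ratio of 2.90 (1.97 to 4.32). The other 18 autosomes held 0.598 per Mb. The borders of these classes were set after the values were seen. With 80 reads as the border the ratio of chromosome 11 to chromosome 3 was 1.82 (1.41 to 2.35), and with 150 reads it was 3.43 (1.60 to 7.96).

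Input followed the same course. Peaks with under 10 input reads per bin had a chromosome 11 to chromosome 3 ratio of 0.304 (0.263 to 0.351), and those with 20 or more had one of 1.77 (1.27 to 2.49). Peaks under 1 kb wide were about as dense on both chromosomes, at 0.732 per Mb on chromosome 11 and 0.837 per Mb on chromosome 3 (ratio 0.875, 0.660 to 1.16). Peaks of 5 to 10 kb had a ratio of 0.364 (0.309 to 0.427). The lowest log2 ratio of ChIP to scaled input in the list was 0.585. High input was thus hardly listed without high ChIP. High ChIP, high input and narrow width went together on chromosome 11. Its 88 peaks of 100 or more ChIP reads had a median width of 1150 bp and a median input of 20.8 reads, against 1237.5 bp and 21.0 reads for the 40 on chromosome 3. Limited to input under 20 reads, the density ratio at 100 or more ChIP reads was 2.87 (1.58 to 5.43).

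**Figure D1:**
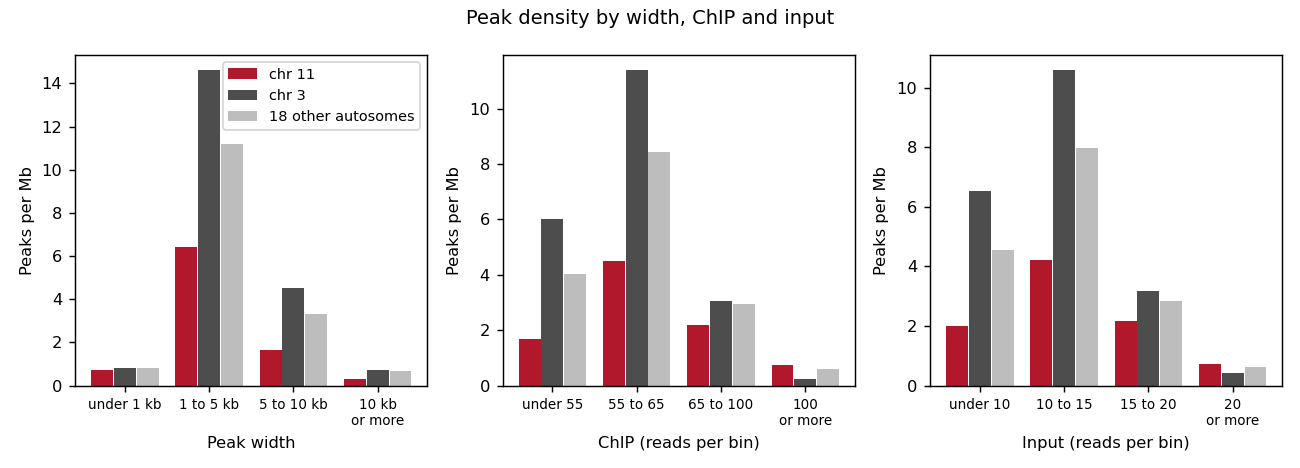
Bars give peaks per Mb of span (from 0) by class of peak width, mean ChIP reads per bin and mean input reads per bin for chromosome 11, chromosome 3 and the other 18 autosomes together. Chromosome 11 is lowest in the classes of few ChIP reads and stands above chromosome 3 at 100 or more ChIP reads (0.741 against 0.255 per Mb) and at 20 or more input reads.

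The typical peak of chromosome 11 was slightly narrower, with more ChIP and more input, than that of chromosome 3. Median width was 2921 bp (95% interval of the median 2776 to 3026) on chromosome 11 and 3190 bp (3092 to 3284) on chromosome 3. Median ChIP was 60.3 reads per bin (59.7 to 61.0) against 58.1 (57.7 to 58.3). Chromosome 11 had the highest median ChIP of the 19 autosomes. Median input, before any scaling, was 12.8 reads per bin (12.5 to 13.1) against 11.6 (11.4 to 11.7), again the highest among the 19. The authors' log2 ratio of ChIP to scaled input had a median of 1.14 (1.11 to 1.17) on chromosome 11 and 1.22 (1.20 to 1.24) on chromosome 3. Chromosome 11 therefore combined high ChIP with a low ratio, which ranked 17 from the top among the autosomes.

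A quality flag set by the authors, whose definition is not given, was carried by 373 peaks of chromosome 11 (34.5%, exact 95% interval 31.7 to 37.4%), against 30.8% of the whole list. Chromosome 3 had the lowest flagged share of the autosomes, 25%. A mean p over the bins of at most 0.05, called strict below, was met by 37 peaks of chromosome 11 (3.42%), against 3.17% of the whole list, and by 49 on chromosome 3 (1.51%). The way that p was computed was not given in the sources used here. Strict peaks had close densities, at 0.311 per Mb on chromosome 11 and 0.313 per Mb on chromosome 3, and the ratio of chromosome 3 to chromosome 11 was 1.01 (0.643 to 1.58). Ratios above 2 on the log2 scale occurred in 75 peaks of chromosome 11 (6.94%), against 7.73% of the list. Such peaks stood at 0.631 per Mb on chromosome 11 and 1.49 per Mb on chromosome 3, which held 234. Peaks of high ratio were thus sparse on chromosome 11 as well, unlike those with 100 or more ChIP reads. Ratios under 1 occurred in 369 peaks of chromosome 11 (34.1%), against 28.9% of the list.

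Along the chromosome, peaks were gathered before 50 Mb. In 25 windows of 5 Mb the number of peaks ran from 7 to 135. The 5 windows with most peaks were 10 to 15 Mb (135), 35 to 40 Mb (111), 15 to 20 Mb (103), 25 to 30 Mb (96) and 40 to 45 Mb (77), and all lay before 50 Mb. The 5 with fewest were 0 to 5 Mb (7), 75 to 80 Mb (9), 120 to 125 Mb (11), 85 to 90 Mb (13) and 60 to 65 Mb (14). The first peak of the chromosome starts at 3019649 and the last ends at 121830537, so the end windows were reached only in part. In the same windows chromosome 3 ran from 14 peaks (85 to 90 Mb) and 27 (100 to 105 Mb) up to 251 (45 to 50 Mb) and 263 (110 to 115 Mb).

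**Figure D2:**
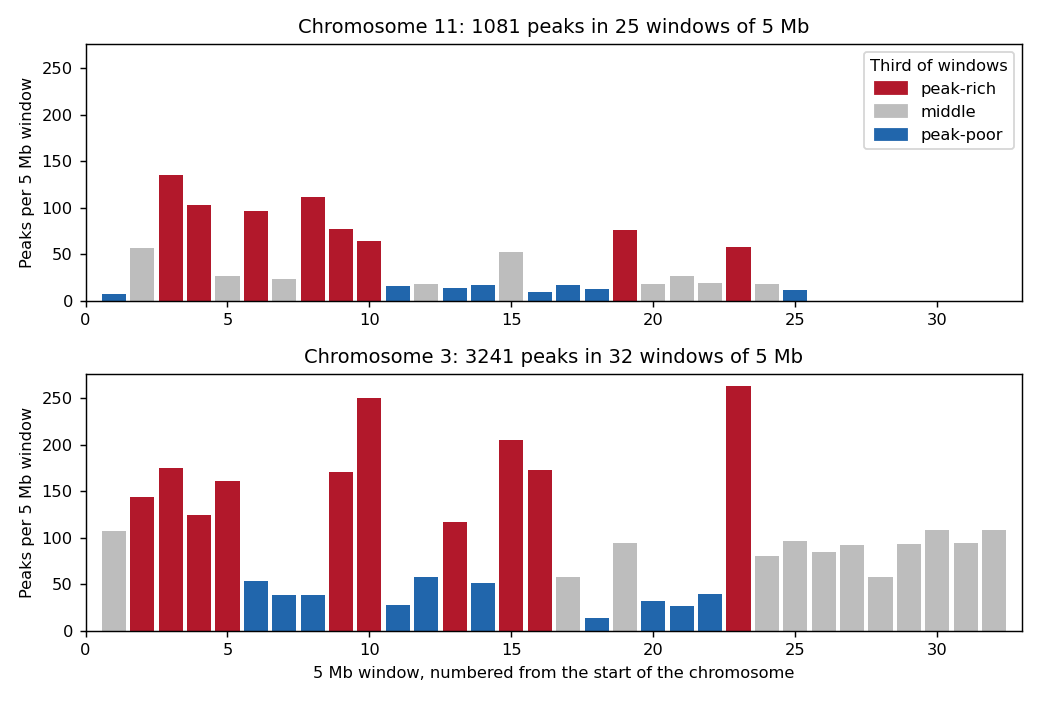
Bars give the number of peaks in each 5 Mb window of chromosome 11 (above) and chromosome 3 (below), numbered from the start of the chromosome and coloured by whether the window is among those with most or fewest peaks of its chromosome. On chromosome 11 the windows after the tenth hold 76 peaks or fewer, while chromosome 3 reaches 263 in its 23rd window.

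Before 50 Mb chromosome 11 had 699 peaks, 14.9 per Mb, and beyond it 382, or 5.32 per Mb. The ratio of the sides was 2.80 (2.47 to 3.18). With the border at 45 Mb it was 2.61 and at 55 Mb 2.51. The border was set after the windows were seen. Without the densest window, 10 to 15 Mb, the ratio was 2.53. Over all peaks chromosome 3 showed a smaller difference between its sides, with 26.9 per Mb before and 18.04 beyond 50 Mb (ratio 1.49, 1.39 to 1.60). Chromosome 11 had 0.553 times the density of chromosome 3 before 50 Mb (0.503 to 0.607) and 0.295 times beyond it (0.264 to 0.329). Over all peaks, the shortfall against chromosome 3 was thus deeper beyond 50 Mb. Among flagged peaks it was not. Chromosome 11 had 190 flagged peaks before and 183 beyond 50 Mb (ratio of densities 1.59, 1.29 to 1.96), and the same ratio on chromosome 3 was 1.71 (1.48 to 1.96). Flagged peaks stood at 4.04 per Mb on chromosome 11 and 7.28 per Mb on chromosome 3 before 50 Mb, and at 2.55 and 4.27 per Mb beyond it. Strict peaks of chromosome 11 numbered 17 before and 20 beyond, a ratio of 1.30 with an interval of 0.639 to 2.61, and on chromosome 3 the ratio was 1.13 (0.581 to 2.11). Beyond 50 Mb strict peaks stood at 0.278 per Mb on chromosome 11 and 0.301 per Mb on chromosome 3.

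Peaks beyond 50 Mb differed from those before it in their own values. Median width was 3244 bp (3069 to 3483) before 50 Mb and 2147 bp (1924 to 2413) beyond it. Median ChIP was 58.6 reads per bin (58.2 to 59.3) before and 67.3 (64.9 to 69.2) beyond, and median input was 12.2 (11.9 to 12.5) and 14.9 (14.2 to 15.5). The log2 ratio changed little, with medians of 1.16 before and 1.10 beyond. Of the 88 peaks with 100 or more ChIP reads per bin, 69 lay beyond 50 Mb, where they were 18.1% of the peaks (14.3 to 22.3%), against 2.72% before it (1.64 to 4.21%). Narrow peaks under 1 kb numbered 30 before and 57 beyond.

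The windows with most and with fewest peaks were then compared. Peak-rich here means the 8 windows of chromosome 11 with most peaks (58 to 135 each) and peak-poor the 8 with fewest (7 to 17 each). Windows were ranked by number of peaks, whatever part of a window the peaks reached. The peak-poor class thus includes the cut windows at both ends, 0 to 5 Mb and 120 to 125 Mb. In the latter, 11 peaks lay before 121830537, so its low number goes with a short stretch. For chromosome 3, with 32 windows, the 10 with most (117 to 263) and the 10 with fewest (14 to 58) were taken. On chromosome 11 the peak-rich windows held 720 peaks, 66.6% of the chromosome's, and the peak-poor ones held 104, or 9.62%. Peaks covered 7.15% of the peak-rich windows and 0.570% of the peak-poor ones, each window counted as 5 Mb. Since windows were classed by peak number in this same list, the differences that follow are descriptions.

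Peaks of the peak-rich windows were wider and had fewer reads. Median width was 3361 bp (3144 to 3520) in peak-rich windows and 1492 bp (1322 to 1711) in peak-poor windows, a ratio of 2.25. On chromosome 3 the medians were 3397 bp and 2493.5 bp, a ratio of 1.36. The peak-rich parts of both chromosomes thus had peaks of like width. The larger gap in width on chromosome 11 lay with its peak-poor windows, which held fewer peaks each than those of chromosome 3. Peaks of 10 kb or more numbered 24 in the peak-rich windows of chromosome 11 (3.33%, 2.15 to 4.92%), against 4.30% of the whole list. Its peak-poor windows held 0 (0 to 3.48%), and these intervals overlap. Peaks under 1 kb made up 4.86% of the peak-rich and 23.1% of the peak-poor windows of chromosome 11, and 3.19% and 6.58% of those of chromosome 3.

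Median ChIP on chromosome 11 was 58.4 reads per bin (57.9 to 59.0) in peak-rich windows and 77.1 (71.8 to 83.2) in peak-poor windows. The medians of single windows did not overlap between these classes, at 56.9 to 64.9 reads in the 8 peak-rich windows and 69.6 to 88.5 in the 8 peak-poor ones. On chromosome 3 ChIP was 56.5 reads (56.3 to 56.8) in peak-rich and 62.9 (61.9 to 63.5) in peak-poor windows. The difference between the classes was -18.7 reads per bin on chromosome 11 (-25.3 to -12.8) and -6.39 on chromosome 3 (-7.25 to -5.17). These intervals do not overlap, but peak-poor windows held 7 to 17 peaks on chromosome 11 and 14 to 58 on chromosome 3. Input moved the same way, with medians of 12.1 (11.8 to 12.4) in peak-rich and 17.4 (15.8 to 18) in peak-poor windows of chromosome 11, and 10.7 and 14.4 on chromosome 3. The differences in input, -5.23 (-6.20 to -3.43) on chromosome 11 and -3.67 (-4.125 to -2.94) on chromosome 3, had overlapping intervals. Over single windows input overlapped, at 10.9 to 14.7 in the peak-rich and 12.1 to 19.1 in the peak-poor class of chromosome 11. The 12.1, like the ChIP of 69.6, is from the cut window of 120 to 125 Mb.

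The log2 ratio separated the classes poorly on chromosome 11. Its median was 1.16 (1.12 to 1.19) in peak-rich and 1.05 (0.95 to 1.15) in peak-poor windows. On chromosome 3 it was 1.30 (1.28 to 1.32) against 1.01 (0.97 to 1.09). The difference was 0.30 (0.20 to 0.36) on chromosome 3 and 0.12 (-0.03 to 0.23) on chromosome 11, with overlapping intervals. The flag went with high ChIP. Among peaks with 100 or more ChIP reads per bin, 85 of 88 carried it on chromosome 11 and 38 of 40 on chromosome 3. On the other 18 autosomes, chromosome 3 included, 1344 of 1368 such peaks did. Such peaks were 2.36% of the peaks in peak-rich and 21.2% in peak-poor windows of chromosome 11. On chromosome 3 they were 0.280% and 4.21%. The flagged share on chromosome 11 was 26.4% (23.2 to 29.8%) in peak-rich and 51.0% (41.0 to 60.9%) in peak-poor windows. On chromosome 3 it was 25.6% and 24.7%. In this the other autosomes were like chromosome 11, since over all 18 the flagged share was 48.8% in windows of 0 to 19 peaks, 45.9% in those of 20 to 39 and 27.5% in those of 80 or more. Strict peaks numbered 19 in the peak-rich and 5 in the peak-poor windows of chromosome 11, 2.64% (1.60 to 4.09%) and 4.81% (1.58 to 10.9%) of the peaks there, with overlapping intervals.

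**Figure D3:**
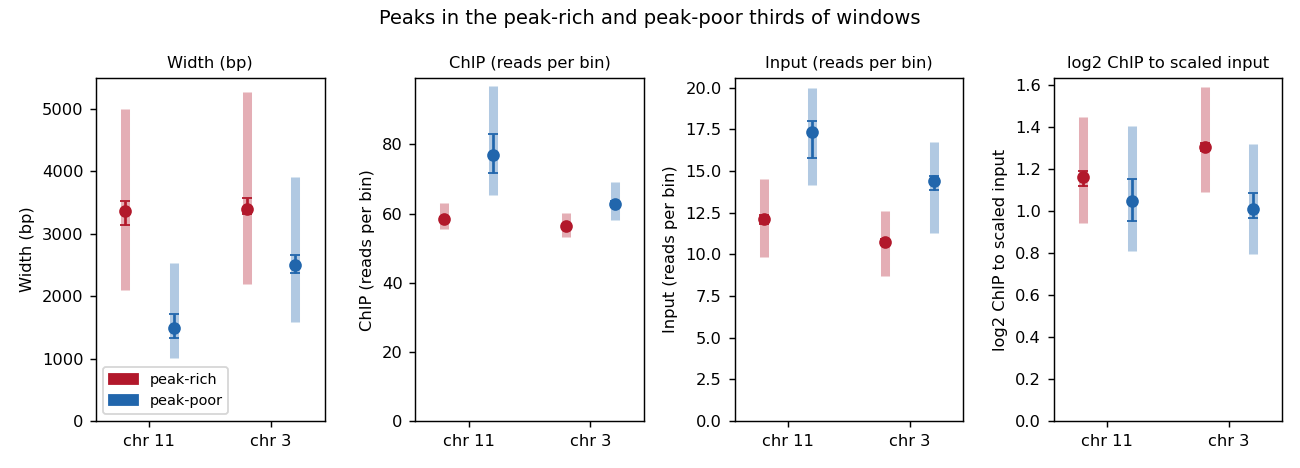
Dots are medians over peaks with 95% intervals of the median (thin bars) and wide bars are interquartile ranges, for width, ChIP, input and log2 ratio in the peak-rich (left) and peak-poor (right) windows of chromosomes 11 and 3. Width and ChIP differ more between the classes on chromosome 11 (widths of 3361 against 1492 bp) than on chromosome 3. For input and the log2 ratio the differences have overlapping intervals. Peak-poor windows held 7 to 17 peaks on chromosome 11 and 14 to 58 on chromosome 3.

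The values of single windows followed the number of peaks. Over the 25 windows of chromosome 11, the number of peaks had a Spearman's rho with median width of 0.76 (Pearson's r 0.73), with median ChIP -0.77 (r -0.57), with median input -0.69 (r -0.77) and with the flagged share -0.63 (r -0.64). With the median log2 ratio it was 0.16 (r 0.13), and 0.32 (r 0.33) over the 23 windows with 10 or more peaks. Over the 32 windows of chromosome 3 the same values of rho were 0.64, -0.95, -0.88, -0.03 for the flagged share and 0.72 for the log2 ratio. Median ChIP and median input of the windows had a rho of 0.90 on both chromosomes. The lowest log2 ratio in the list was 0.585, so high input was hardly listed without high ChIP. How much of that rho comes from this was not tested. Windows share the same libraries and are not independent replicates. The peak-poor windows rest on few peaks each, and their base composition was not analysed here.

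**Figure D4:**
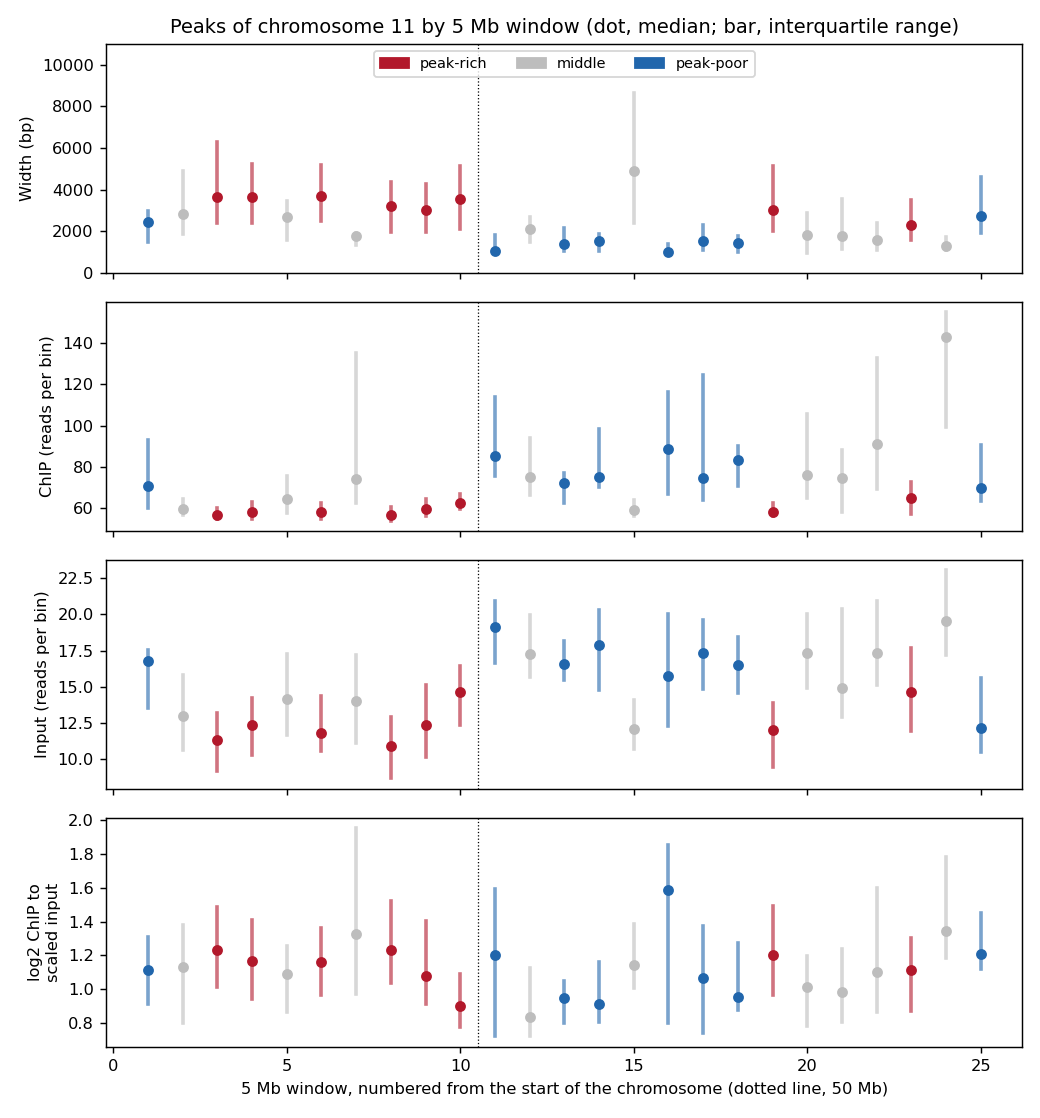
For each 5 Mb window of chromosome 11, numbered from its start, dots give the median and bars the interquartile range of width, ChIP, input and log2 ratio, coloured by class of window. Beyond the dotted line at 50 Mb most windows have narrower peaks with more ChIP and input reads, and only the windows of 70 to 75, 90 to 95 and 110 to 115 Mb have a median ChIP under 65 reads per bin there.

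Windows of like peak number were also set side by side. In windows of 0 to 19 peaks, 12 of 25 on chromosome 11 and 59 of 479 on the other 18 autosomes, median ChIP was 79.8 reads per bin (75.1 to 85.6) on chromosome 11 and 70.0 (68.2 to 72.5) on the others. Median input there was 17.5 (16.6 to 18) against 15.5 (15.2 to 15.9), and width 1528 bp (1392 to 1731) against 1720 bp (1595 to 1832). Only 1 window of chromosome 3 had so few peaks. In windows of 20 to 39 peaks, 3 on chromosome 11 and 5 on chromosome 3, flagged peaks were 53.3% (41.4 to 64.9%) on chromosome 11 and 25.2% (18.7 to 32.5%) on chromosome 3, and 45.9% on the other 18 autosomes. Median ChIP there was 70.9 (63.8 to 76.3) on chromosome 11 and 64.1 (63 to 66.3) on chromosome 3, input 14.3 (13 to 15.8) and 15.4 (14.7 to 15.9), and width 1909 bp (1641 to 2356) and 2306 bp (1892 to 2598), all with overlapping intervals. In windows of 40 to 79 peaks, 6 on each chromosome, peaks were wider on chromosome 11, at 3035 bp (2908 to 3344) against 2521 bp (2396 to 2663) on chromosome 3. ChIP in that class was 60 (59.4 to 61.3) on chromosome 11 and 60.9 (60.5 to 62) on chromosome 3. In windows of 80 or more peaks, 4 on chromosome 11 and 20 on chromosome 3, the 2 chromosomes were close, with 57.4 reads of ChIP on both and widths of 3553 bp (3341 to 3800) and 3346 bp (3241 to 3429). Chromosome 11 had 48.0% of its windows in the lowest class, its end windows included, against 12.3% of the windows of the other autosomes.

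The pattern was broken at a few places beyond 50 Mb. From 73125800 to 74027599, 42 peaks stood with gaps under 50 kb, the run of most peaks on the chromosome by that measure. They covered 32.3% of 901.8 kb and had a median width of 5934.5 bp, a median ChIP of 57.5 and a median input of 11.9 reads per bin. The other 10 peaks of the window from 70 to 75 Mb had medians of 1912 bp, 71.3 and 13.8. That single stretch thus held 10 of the 13 peaks of 10 kb or more beyond 50 Mb, and the rest of its window held none. Strict peaks were not gathered in it. It held 3 of the 5 in the window, 7.14% of its 42 peaks. The other 2 were 20% of the 10 peaks outside it, and the intervals of these shares overlap. The runs of next most peaks lay before 50 Mb, with 40 peaks from 38544682 to 39287994, 37 from 15396800 to 16194645, 34 from 13183609 to 13845199 and 33 from 14047285 to 14669199. Runs of 10 or more peaks held 35.2% of the peaks of chromosome 11 and 61.3% of those of chromosome 3, where the largest run had 130.

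The window from 115 to 120 Mb was the opposite. It held 18 peaks with a median ChIP of 142.9 reads per bin, the highest of the 25 windows, a median width of 1291.5 bp and a median input of 19.5. ChIP of its peaks ran from 67.2 to 193.5 reads per bin, and 13 of the 18 had 100 or more. The flag was carried by 17 of the 18. On the other 18 autosomes 1344 of 1368 peaks with 100 or more ChIP reads carried it. The highest ChIP of the window, from 118657296 to 118659317 (2022 bp), was 193.5 over 19.7 input reads. A neighbour from 118733200 to 118734566 had 160.3 over 16.9. Windows with many such peaks also included 105 to 110 Mb (8 of 19 peaks with 100 or more ChIP reads), 110 to 115 Mb (8 of 58), 50 to 55 Mb (7 of 16) and, before 50 Mb, 30 to 35 Mb (9 of 23). Of these, 110 to 115 Mb is a peak-rich window, and the others had 23 peaks or fewer. Without the window from 115 to 120 Mb, the ratio of chromosome 11 to chromosome 3 in the density of such peaks was 2.58 (1.73 to 3.89).

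Stretches without peaks took up much of the chromosome. Gaps of 500 kb or more numbered 53 and took 40.2% of the span of chromosome 11, against 33 gaps and 16.1% on chromosome 3 and 23.1% on the other 18 autosomes. Gaps of 1 Mb or more numbered 13 and took 16.9%, against 6 and 5.23% on chromosome 3. The median gap was 32011 bp on chromosome 11 and 16558 bp on chromosome 3. Gaps under 10 kb were 22.2% of all gaps on chromosome 11 and 34.8% on chromosome 3.

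The 10 longest gaps of chromosome 11 all lay beyond 50 Mb and added up to 16.9 Mb. The longest, from 76559436 to 79189409, spans 2.63 Mb, and it is parted by 1 peak from another of 1.25 Mb, from 75308981 to 76558431. That lone peak, from 76558432 to 76559435, had 170.0 ChIP reads per bin over 20 of input. Next came 67647790 to 69546999 (1.90 Mb), 59913164 to 61766155 (1.85 Mb), 114835600 to 116609426 (1.77 Mb), 56517648 to 58280199 (1.76 Mb) and 105417369 to 107127452 (1.71 Mb). The other 3 were 58364834 to 59802362 (1.44 Mb), 52770600 to 54121694 (1.35 Mb) and 86842935 to 88042546 (1.20 Mb). Between 56517648 and 61766155 lay 3 of the 10. Before 50 Mb the longest gap was 978991 bp, and 11 of the 53 gaps of 500 kb or more lay there. In windows of 1 Mb, 9 of 119 on chromosome 11 were empty and 0 of 157 on chromosome 3.

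**Figure D5:**
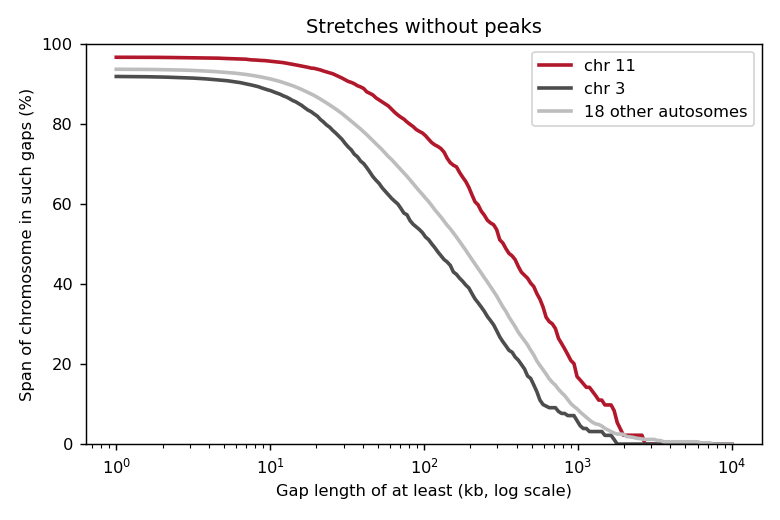
Lines give the percent of the span of chromosome 11, chromosome 3 and the other 18 autosomes that lies in gaps of at least the length on the x axis (kb, log scale). At 500 kb the line of chromosome 11 is at 40.2%, above 16.1% for chromosome 3 and 23.1% for the other autosomes.

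Single peaks showed the same range of forms. The highest log2 ratio among peaks with ChIP at or above the list's median was 6.44, from 46536341 to 46536897 (557 bp wide), where 93.5 ChIP reads per bin stood over no input read. Its summed ChIP was at least 25.8 times scaled input, taking 3 counts over the whole peak as the floor for input. Only 7 peaks of the chromosome had an input under 0.25 times the list's median, and this was the only one without an input read. The next ratios were 3.93 from 109026251 to 109028174 and 3.92 from 108889153 to 108890236, both in the window from 105 to 110 Mb. From 120063207 to 120064939 the ratio was 3.55, with 179.6 ChIP over 7.56 input reads, and from 116609427 to 116610227 it was 3.28. Of these 5 peaks 4 lay in windows with 19 peaks or fewer. None of those 4 was strict, as were only 3.42% of all peaks of chromosome 11. The limit on ChIP left out ratios of 4.40 (15522616 to 15523399) and 4.21 (38886050 to 38886675), with 32.25 and 47.25 ChIP reads per bin. Both lay in dense windows, of 103 and 111 peaks, so where the highest ratios lay depended on that limit.

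The widest peaks were shallow and lay mostly in dense windows. They measured 29936 bp from 13049830 to 13079765, 22654 bp from 27442946 to 27465599 and 21394 bp from 10729406 to 10750799. These 3 had 53.1, 52.7 and 56.4 ChIP reads per bin and log2 ratios of 1.05, 1.05 and 0.97. The next widest, from 73763300 to 73781130 and from 73733400 to 73749590, belong to the run near 73 Mb described above. By summed counts the 5 stood at 1.78 to 2.32 times scaled input.

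The highest mean ChIP was 265.8 reads per bin, in a peak 882 bp wide from 35166440 to 35167321, over 31.8 of input, 3.45 times scaled input by summed counts (2.93 to 4.1). It stood in a window of 111 peaks. From 105416363 to 105417368, at the edge of a gap of 1.71 Mb, ChIP was 217.8 over 17.3 of input, 5.19 times (4.25 to 6.41). From 33627575 to 33629999 it was 204.5 over 16.8, 5.04 times (4.39 to 5.81). Input was highest from 29447524 to 29448589, where 195.5 ChIP reads stood over 42.2 of input, 1.92 times (1.67 to 2.20), and from 31627722 to 31628750, with 208.2 over 40.3 (2.13, 1.86 to 2.46). High ChIP thus occurred with both modest and high ratios. No peak of chromosome 11 had an input over 4 times the list's median.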

How the data were processed

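The members and lists were chosen with earlier results of these data known. The aligner was Bowtie 0.12.7 and the build mm9, both per the submitters' processing notes. Which program called peaks, its p and how it joined the libraries were not given in the sources used here. Mean ChIP, mean input and scaled input are signal (reads per bin averaged over a peak), and the highest bin and summit pile-up are counts, per the file headers. The authors' scaled input was input times 2.42. Ratios of ChIP to scaled input are the deposited log2 values, which the authors averaged over bins. The −log10 of the mean p and the quality flag were used as deposited.

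Peaks were placed in windows by their midpoint. Density is per Mb between the first and the last peak. Medians have binomial, shares exact Clopper-Pearson and density ratios exact conditional 95% intervals. An interval of a difference of medians was taken from the outer bounds of both. The number of bins per peak, needed for summed counts, was inferred as the number nearest to a bin of 200 bp that made both sums whole (tolerance 1e-06). Reads can fall in several bins and are not independent molecules, so intervals and floors cover counting error only. Windows, classes, gaps and peaks to be named followed fixed rules: the 5 peaks of highest log2 ratio (with ChIP at or above the list's median), width, ChIP and input, the first and last peak, and the 10 longest gaps. Other places were named after their values were seen. No test across libraries was made, since 1 list for 4 libraries holds no replicates. Calculations were tested on simulated data. The work used scipy 1.17.1, numpy 2.4.6 and pandas 2.3.3 in Python 3.11.15, with matplotlib 3.10.9 for plots.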

Additional observations from a re-analysis of the deposited data

How the results depend on the processing

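Of 64 alternatives, 34 left the value within its interval (counts: within 1.5 times) and none of the differences with an interval clear of 0 changed sign. Covered Mb and peaks per window have other units than the peak number they were set against. The longest gap had no interval. These alternatives therefore counted as outside by construction. Limits on the list changed numbers by construction. Strict peaks alone left 37 peaks on chromosome 11, a density ratio of chromosome 3 over chromosome 11 of 1.01 (2.28 with all peaks), and medians of 3141 bp, 71.3 ChIP reads and a log2 ratio of 1.49. The quality flag left 373 peaks, a ratio of 1.65, medians of 2319 bp, 68.2 ChIP and 13.9 input reads and 1.29, a ChIP difference of -34.0 between peak-rich and peak-poor windows, and a longest gap of 3.20 Mb. ChIP at or above the list's median left 622 peaks, a ratio of 1.80, medians of 2180.5 bp, 66.5 and 15.2 reads and 1.01, and differences of 1188 bp in width and -3.36 in input. By covered bases chromosome 11 had 3.94 Mb and the ratio was 2.44; per window it had 43.2 peaks. In 1 Mb windows the ChIP difference was -32.6. The difference in log2 ratio, 0.12 with an interval of -0.03 to 0.23, was -0.02 in 1 Mb windows and in the higher-ChIP peaks.

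Chosen after seeing the data: the density before over beyond 50 Mb was 1.30 among strict, 1.59 among flagged and 1.89 among higher-ChIP peaks. The chromosome 11 to chromosome 3 ratio of peaks with high ChIP was 1.82 at 80 reads and 1.90 by a summit pile-up of 100 or more. The cause of these shifts was not tested. No paired analysis was possible because each peak has 1 value for all libraries together, which also kept single replicates from being left out.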

Other observations

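Distance to the next peak sorted the peaks of chromosome 11 in the same way as peak number per window did. The 401 peaks with a neighbour under 10 kb away had medians of 3495 bp, 57.9 ChIP and 11.7 input reads per bin, and the 138 with none within 100 kb had 1374 bp, 78.5 and 16.9. Such lone peaks were 12.8% of the peaks of chromosome 11 and 3.49% of those of chromosome 3, and 55.8% of them carried the flag on chromosome 11 against 38.9% on chromosome 3.

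At like input, ChIP differed between the window classes of chromosome 11 in the middle input classes and not beyond its intervals in the outer ones. Among peaks with 10 to 15 input reads per bin, median ChIP was 58.1 (57.5 to 58.8) in 383 peaks of peak-rich windows and 68.2 (61.0 to 74.5) in 25 of peak-poor windows. With 15 to 20 input reads it was 65.3 (64.2 to 67.2) and 73.1 (70.1 to 78.4). Under 10 input reads it was 54.5 (53.6 to 55.6) in peak-rich and 58.2 (45.25 to 179.6) in peak-poor windows, and at 20 or more it was 102.8 (89.8 to 130.5) and 99.2 (89.1 to 120). Widths in the 2 middle classes were 3942 against 1453 bp and 3021 against 1579 bp, so a mean over fewer bins moves with the higher ChIP, and its part in it was not tested. On chromosome 3 the medians at 10 to 15 input reads were 57.8 and 60.9.

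The deposited log2 ratio and the fold of summed counts can part. From 109026251 to 109028174 the deposited value was 3.93, while summed ChIP was 3.44 times scaled input (2.73 to 4.37).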
